A study of Mus musculus with 2 samples.

Results

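Oxidative phosphorylation was followed through 92 genes of the mouse respiratory chain and ATP synthase in Sox1-GFP+ cells sorted from tail and from brain. The members were chosen by gene name alone, as every gene listed in either deposited table whose symbol began with mt-Nd, mt-Co, mt-Cytb or mt-Atp, with Nduf followed by a, b, c, s or v and a digit, with Cox and a digit from 4 to 8, with Uqcr or with Atp5. They made up 92 of the 19608 genes listed, 13 of them encoded by the mitochondrial genome and 79 by the nuclear genome. Among the 13 mitochondrial genes, 7 encode subunits of complex I, 1 of complex III, 3 of complex IV and 2 of complex V, the ATP synthase. Of the 79 nuclear genes, 35 belong to complex I, 8 to complex III, 19 to complex IV and 17 to complex V, and complex II falls outside the name rule. All 79 had at least 1 molecule in kept tail cells and 77 in kept brain cells, the absent members being Ndufa4l2 and Cox8c.

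Single cells came from mice carrying a green fluorescent protein knocked into Sox1, a transcription factor gene of neural stem and progenitor cells, so that GFP followed the activity of the Sox1 locus. The first group was Sox1-GFP+ cells of the postnatal tail and the other Sox1-GFP+ cells of the adult brain. Both tissues were minced, dissociated with trypsin and sorted for GFP, and single-cell transcripts were captured on the BD Rhapsody platform and counted as molecules. Each group was 1 library, and the number of animals pooled was not given in the sources used here. Tissue, age, library and any difference in handling therefore cannot be told apart, no test between the groups exists, and the intervals below are 95% intervals that cover counting error only.

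Complex I takes electrons from NADH, complex III passes them through cytochrome c, and complex IV hands them to oxygen, while the proton gradient built on the way drives complex V to make ATP. All of the mitochondrial messengers come from a small circular genome that is transcribed as long polycistronic precursors and cut at tRNA genes, whereas the nuclear subunits are transcribed singly and imported as proteins. Adult neural stem cells and astroglia are known for a strong use of glycolysis, and neurogenic differentiation is commonly described as a move towards oxidative metabolism.

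Levels of mitochondrial members are given as a percentage of all molecules or as molecules per 1000000 of all molecules (CPM of all molecules). Levels of nuclear members are given per 1000000 nuclear molecules, that is molecules of genes without the mt- prefix (nuclear CPM). Counts were not scaled by transcript length, so levels are compared between cells for 1 gene, and the share of a gene in its isoform family is a share of molecules counted, to be compared between cells and not read as an order of levels among the isoforms. A ratio between 2 sides was called when the gene held at least 50 molecules over both sides and the whole 95% interval lay beyond 1.5-fold.

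3 sequences show the features that bear on how these genes were counted and on Cox6b1 and Cox6b2, an isoform pair whose balance differed between the libraries. In mt-Atp8, a subunit of the ATP synthase membrane domain (chrM:7766-7969, plus strand, GENCODE vM21 on GRCm38), the capitals mark the last 43 bases, which are also the start of mt-Atp6, so that a read there belongs to both genes. For Cox6b1, the usual subunit 6b of complex IV, the promoter is shown (chr7:30626065-30626364, minus strand) and the capitals mark CTTCCGG, the reverse complement of the ETS-family motif CCGGAAG. The promoter of Cox6b2, the isoform known from testis (chr7:4753045-4753344, minus strand), holds neither that motif nor the NRF1 motif (GCGCA, any base, then GCGC) on either strand. Both promoters are from RefSeq on GRCm38.p6 and run from 250 bases before to 50 bases after the gene's start.
mt-Atp8: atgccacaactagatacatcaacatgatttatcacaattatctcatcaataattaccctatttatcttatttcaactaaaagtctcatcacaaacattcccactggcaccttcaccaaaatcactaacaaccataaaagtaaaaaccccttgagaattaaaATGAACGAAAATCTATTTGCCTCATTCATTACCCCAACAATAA
Cox6b1: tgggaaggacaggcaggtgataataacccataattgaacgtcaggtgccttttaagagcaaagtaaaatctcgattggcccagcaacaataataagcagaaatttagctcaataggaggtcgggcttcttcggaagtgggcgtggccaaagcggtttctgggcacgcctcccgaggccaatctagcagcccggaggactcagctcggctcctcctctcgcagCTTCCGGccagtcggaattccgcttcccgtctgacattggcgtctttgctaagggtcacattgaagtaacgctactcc
Cox6b2: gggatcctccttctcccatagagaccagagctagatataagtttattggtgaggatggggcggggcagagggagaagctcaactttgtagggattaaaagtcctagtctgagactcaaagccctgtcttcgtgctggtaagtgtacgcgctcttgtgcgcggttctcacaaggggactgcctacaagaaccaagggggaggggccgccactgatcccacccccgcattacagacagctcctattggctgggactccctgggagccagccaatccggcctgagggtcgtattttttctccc
Of all 32851 promoters of the same length, 4.603% held the NRF1 motif and 8.86% the ETS motif. A match of letters is no binding site, and the absence of a match says only that these letters are not in this window.

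Barcodes were kept at over 200 but below 4000 genes, with mt- molecules below 40%, which left 1964 of 2469 tail barcodes (79.5%) and 7988 of 12111 brain barcodes (66.0%). The kept tail cells held 2817103 molecules, with a median of 1282.5 per cell, and the kept brain cells 6424466, with a median of 696. A median tail cell held 19 nuclear-member and 169 mitochondrial molecules, against 8 and 101 in a median brain cell. Only 2 tail cells and 52 brain cells had no nuclear member at all. Across the libraries 29 cell barcode numbers were shared. Summed marker lists stood at 1192 nuclear CPM for astroglia and 11416 for fibroblasts in tail, against 41108 and 169 in brain, so the libraries also differed in the cells they held. Of 11 dissociation-induced genes, 5 were called higher in tail and 0 higher in brain, against 20.6% and 12.7% of all genes tested, and the part of cell content and dissociation in the library differences was not tested.

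In sums over cells, mitochondrial transcripts took a smaller share of all molecules in tail than in brain, while nuclear members took a larger share of nuclear molecules. The 13 mt- genes made up 12.9% of all molecules in tail and 14.6% in brain, a ratio of 0.879 (0.875 to 0.882). Cells spread widely in both, with a median of 12.7% and quartiles of 10.1% and 17.0% in tail, and 14.2%, 9.65% and 19.2% in brain. Nuclear members summed to 18441 nuclear CPM in tail and 15175 in brain, a ratio of 1.22 (1.20 to 1.23), which fell below 1 to 0.949 when the libraries were scaled by TMM and to 0.961 by median of ratios. Per nuclear-member molecule, tail cells held 8.01 mitochondrial molecules and brain cells 11.3. Without Col1a1- and Tmem212-marked cells the library ratios were 0.922 and 1.24. The library difference in mitochondrial share was small beside the range of cells within each library.

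The mitochondrial genes did not move by a common factor between the libraries. Complex I genes summed to 0.808 of the brain level (0.803 to 0.813), mt-Cytb of complex III to 0.946, the catalytic core genes of complex IV to 0.877 and the ATP synthase genes to 1.06 (1.05 to 1.07). mt-Nd4l was lowest, at 2986 CPM of all molecules in tail and 4330 in brain (0.690, 0.673 to 0.707), followed by its overlapping neighbour mt-Nd4 at 13011 and 17423 (0.747) and by mt-Nd2 at 9693 and 12839 (0.755). These 3 genes encode membrane-arm subunits of complex I, as do all 7 mitochondrial complex I genes, so this does not set them apart. mt-Co1, the haem-bearing catalytic subunit of complex IV, stood at 27261 and 33651 CPM of all molecules (0.810, 0.803 to 0.817). By contrast mt-Co2 (1.03), mt-Atp6 (1.07) and mt-Nd3 (1.07) had intervals wholly above 1, but all 3 fell below 1, to 0.959, 0.999 and 0.989, when the limit on mt- share was lifted. mt-Nd6, the only protein gene on the minus strand, had 116 and 230 molecules and a ratio of 1.15 whose interval held 1 (0.912 to 1.44). mt-Atp8 (0.775, 0.717 to 0.837), mt-Atp6, mt-Co3, mt-Nd4l, mt-Nd4, mt-Nd5 and mt-Nd6 overlap a neighbour, by 1 to 43 bases, and the strand setting of the counting was not stated, so that their split is uncertain.

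Among the 75 nuclear members with enough molecules, 7 were called higher in tail (9.33%) and 0 higher in brain, while 20.6% of the 11347 genes tested were called higher in tail and 12.7% higher in brain. Intervals lay wholly above 1 for 42 members, wholly below 1 for 7, and held 1 for 26. The median member ratio was 0.32 on the log2 scale, with quartiles of 0.05 and 0.48, against a median of 0.25 and quartiles of -0.34 and 0.79 for all genes tested. TMM scaling moved all log2 ratios down by 0.36 and median-of-ratios scaling by 0.34, which turned the 7 and 0 calls into 3 higher in tail and 3 higher in brain under TMM, and into 3 and 2 under median of ratios. Over all genes the split of calls moved from 2334 higher and 1443 lower in tail to 1546 and 2010 under TMM, and 1574 and 1977 under median of ratios. Directions for members near the all-gene median thus follow the scaling chosen, and the members far from it are given next, with gene coordinates from GENCODE vM21 on GRCm38.

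Complex I members summed to 5561 nuclear CPM in tail and 4411 in brain (1.26, 1.23 to 1.29, but 0.985 under TMM and 0.997 under median of ratios), and held members far on both sides of the median, among them the lowest. Ndufa1 (chrX:37187588-37191163, minus strand), a small accessory subunit needed for assembly of the membrane arm, had 894 molecules in tail and 906 in brain, that is 364 and 165 CPM (2.20, 2.01 to 2.42). Ndufb5, an accessory subunit of the membrane arm, stood at 242 and 134 CPM (1.80, 1.62 to 2.01). Ndufa7, an accessory subunit of the matrix arm, stood at 357 and 199.7 (1.79, 1.64 to 1.96). On the brain side, Ndufs1 (chr1:63143596-63176833, minus strand), the large core subunit that carries iron-sulfur clusters, had 181 and 615 molecules, 73.7 and 112 CPM (0.657, 0.554 to 0.777). The accessory subunits Ndufa8 (0.679, 0.561 to 0.818) and Ndufb9 (0.817, 0.689 to 0.966) also had intervals below 1, so that subunits of the same complex lay on both sides of equality.

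Complex III members summed to 1612 nuclear CPM in tail and 1488 in brain (1.08, 1.04 to 1.13), a ratio that turned to 0.847 under TMM and 0.857 under median of ratios. Uqcrfs1 (chr13:30540308-30545362, minus strand), the Rieske iron-sulfur protein that moves electrons to cytochrome c1, had 445 and 1301 molecules, 181 and 237 CPM (0.764, 0.685 to 0.852). The core protein gene Uqcrc1 (0.829, 0.703 to 0.975) and the small subunit gene Uqcr10 (0.739, 0.598 to 0.907) lay on the same side. These 3 intervals lay wholly below 1, although none passed the 1.5-fold rule.

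Complex IV members summed to 5111 and 4221 nuclear CPM (1.21, 1.18 to 1.24, but 0.946 under TMM and 0.958 under median of ratios) and held the members with the greatest ratios. Ndufa4l2 (chr10:127514967-127517154, plus strand), a hypoxia-induced paralog of the complex IV subunit Ndufa4, had 121 molecules in tail and 0 of 5483667 nuclear molecules in brain, at least 90.1-fold higher against a floor of 3 counts, with 72.2-fold as the lower bound of its 95% interval. It reached the minimum of 50 molecules through tail alone. Cox6b2 (chr7:4751792-4753094, minus strand) had 192 and 56 molecules, 78.2 and 10.2 CPM (7.66, 5.66 to 10.51), while its usual counterpart Cox6b1 stood at 456 and 358 CPM (1.27, 1.18 to 1.37, but 0.995 under TMM). Cox7a2l (chr17:83501918-83517330, minus strand), the factor that joins complexes III and IV into supercomplexes, had 689 and 759 molecules, 281 and 138 CPM (2.03, 1.83 to 2.25). Cox8a, a small structural subunit, was among the few with an interval below 1, at 596 and 667 CPM (0.894, 0.840 to 0.9497). Cox5a, a matrix-side subunit, came next on that side, with an interval that just passed 1 (0.896, 0.799 to 1.003).

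Complex V members summed to 6157 and 5055 nuclear CPM (1.22, 1.19 to 1.24, but 0.952 under TMM and 0.963 under median of ratios). Atp5e, the epsilon subunit of the central stalk, had 908 and 1121 molecules, 369.9 and 204 CPM (1.81, 1.66 to 1.98). Of the 3 genes for the same c subunit of the rotor ring, Atp5g2 (chr15:102662864-102672352, minus strand) had 1912 and 2802 molecules, 779 and 511 CPM (1.52, 1.44 to 1.62), whereas Atp5g3 stood at 1.003 (0.951 to 1.06). Over the alternatives tried, Atp5g2 ran from 1.19 to 1.69 and Atp5g3 from 0.783 to 1.06. Atp5g1 stood between them (1.18, 1.07 to 1.30), but fell to 0.922 under TMM. Oxidative phosphorylation genes have many processed pseudogene copies in the genome, and how reads shared with them were assigned was not stated, so levels of single members are uncertain to that extent.

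**Figure D1:**
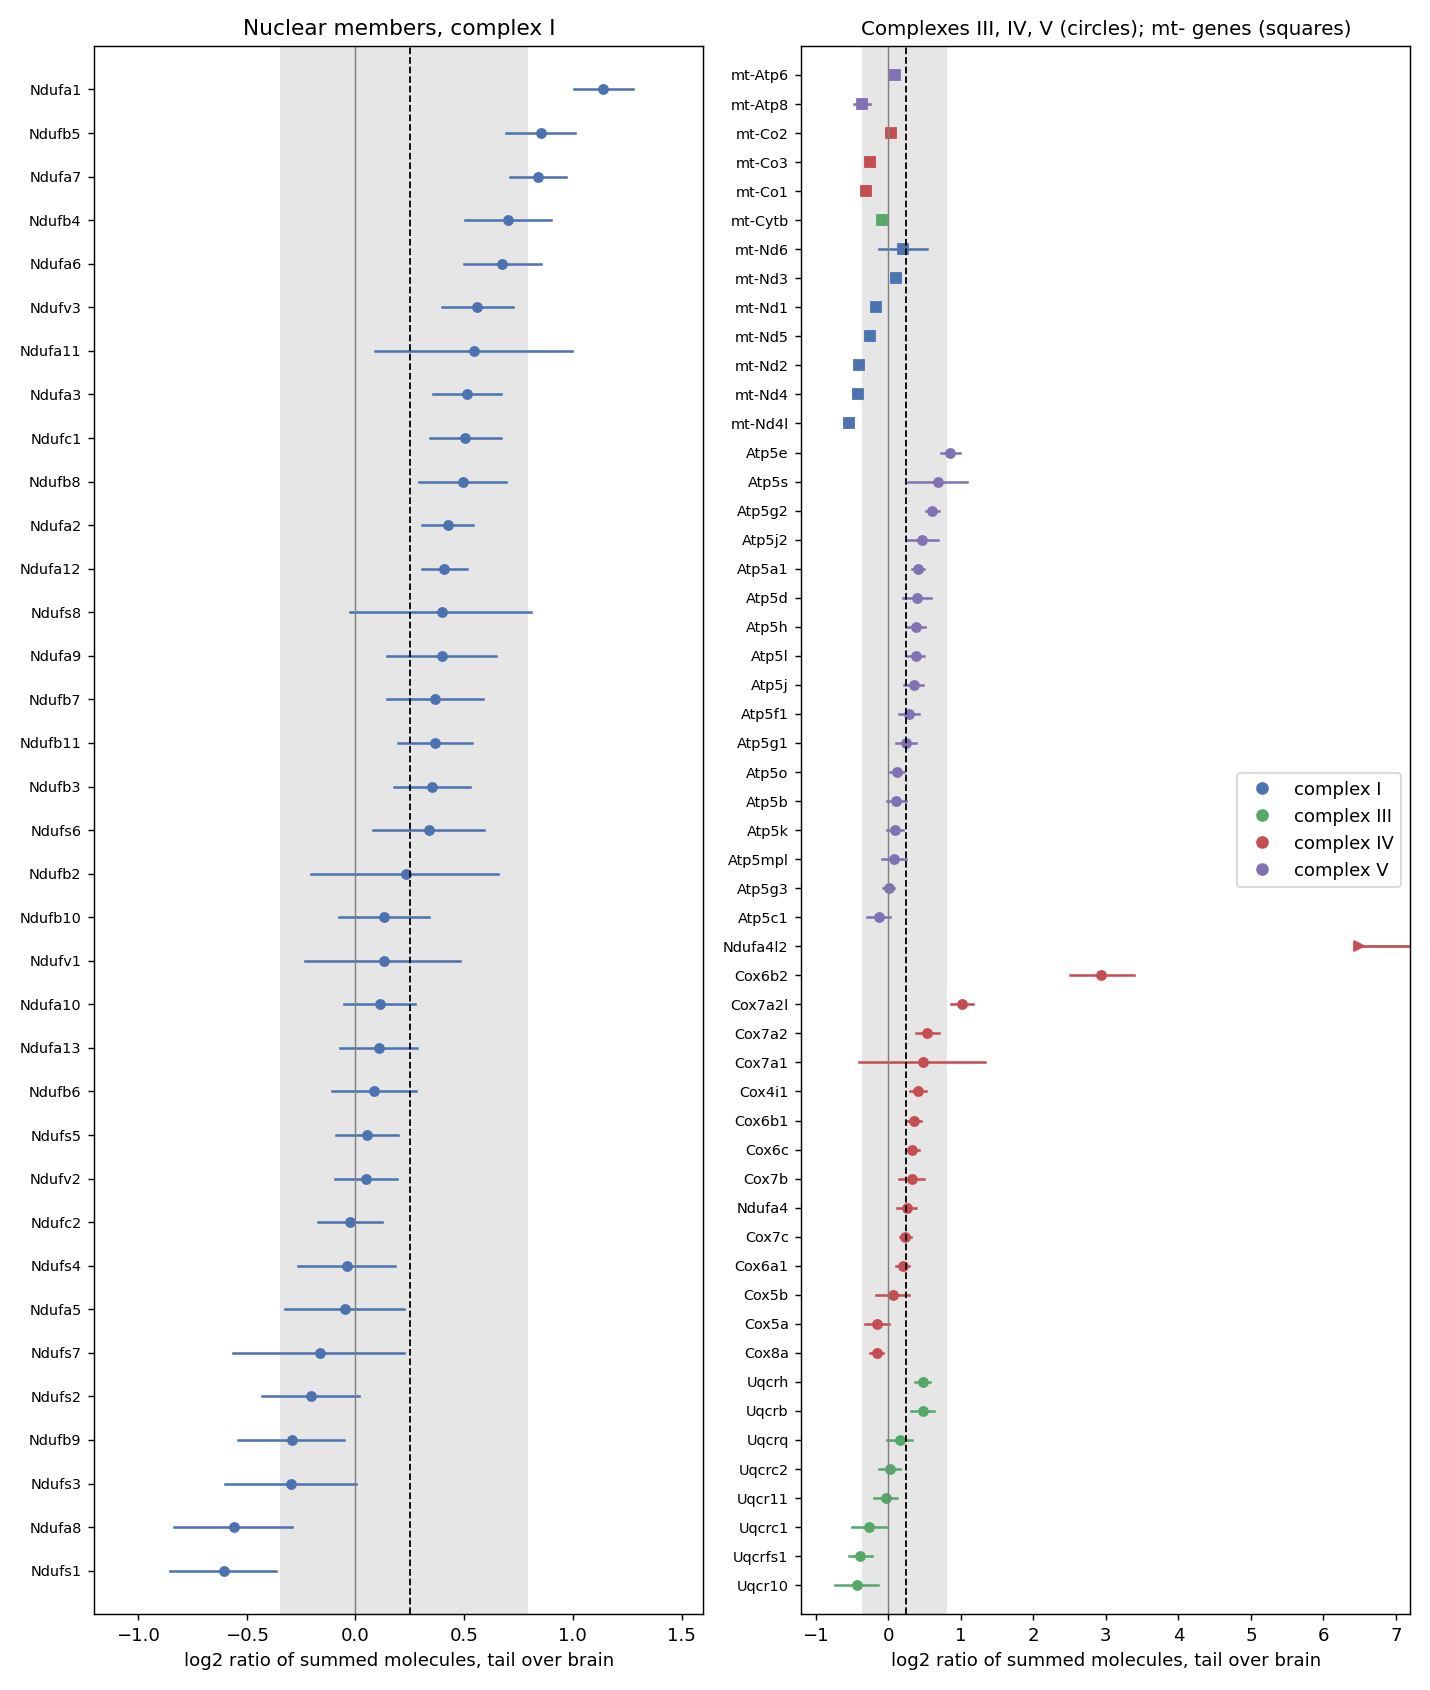
Ratios of summed molecules, tail over brain, on a log2 axis for the 75 nuclear members tested and the 13 mt- genes, complex I members on the left and the other nuclear members (circles) with the mt- genes (squares) on the right. Bars are 95% counting intervals, the dashed line and grey band are the median and quartiles of all 11347 genes tested, and the triangle for Ndufa4l2 marks 90.1-fold, its ratio to the floor of 3 counts, far to the right of Cox6b2 and of all other members.

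Cell groups were formed by marker genes to follow the members within the libraries. A cell was placed in a group when it held at least 2 molecules of exactly 1 of Col1a1 (fibroblast collagen), Tmem212 (ependymal cells), Dlx1 (a homeobox factor of neuroblasts) and Gdf10 (a secreted factor of Bergmann glia). Cells with none of these were placed by at least 2 molecules of Igfbp5, a growth factor binding protein, or of Slc1a3, the glial glutamate transporter, when the other was below 2. In brain, 4383 cells were marked by Slc1a3, 937 by Dlx1, 281 by Gdf10, 132 by Igfbp5, 51 by Tmem212 and 35 by Col1a1. The tail held 784 Igfbp5-marked, 168 Col1a1-marked and 37 Tmem212-marked cells, but only 19 Slc1a3-marked, 5 Gdf10-marked and 0 Dlx1-marked cells, too few to compare. The rest were 152 brain and 377 tail cells with both Igfbp5 and Slc1a3, 5 and 9 with several specific markers, and 2012 and 565 without any. Depth differed between marked and unmarked cells, with medians of 719 molecules in Slc1a3-marked and 553 in unmarked brain cells, and of 1112.5 in Igfbp5-marked and 1369 in unmarked tail cells.

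Marker lists were high where the group names called for them in some groups and went against the name in others. A group's own marker was left out of its lists. Astroglial genes reached 47671 nuclear CPM in Slc1a3-marked brain cells, over 6 genes without Slc1a3. In Gdf10-marked brain cells they reached 62946 over 7 genes with Slc1a3, so these sums are not to be compared. The Bergmann glia list, 3 genes with Slc1a3 among them, reached 39882 in Gdf10-marked cells. Slc1a3 alone stood at 28974 to 40780 there across intervals of the mt- share, and Hopx, also on that list, at 2768 to 6961. In Dlx1-marked cells neuroblast genes reached 6183, and in tail Col1a1-marked cells fibroblast genes reached 40682. Brain Col1a1-marked cells carried 51545 of astroglial and only 3788 of fibroblast genes, so they are named by their rule and not as fibroblasts. Brain Igfbp5-marked cells held 3665 of neuroblast and 4234 of astroglial genes, and the tail cells with that marker held 1788 of erythroid genes. Igfbp5- and Col1a1-marked cells thus differed between tail and brain in these lists. Tmem212-marked cells also did, with 1182 of astroglial genes in tail and 4885 in brain, and 3477 and 5696 of ependymal genes.

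The mitochondrial share separated the groups far more than the nuclear members did. It was 17.0% of all molecules in Slc1a3-marked brain cells, 17.8% in Tmem212-marked and 16.8% in Col1a1-marked ones, but 9.06% in Dlx1-marked, 8.12% in Gdf10-marked and 10.8% in Igfbp5-marked ones. In tail it was 14.5% in Igfbp5-marked, 13.9% in Tmem212-marked and 9.01% in Col1a1-marked cells. Nuclear members lay between 15125 and 15972 CPM in all 6 brain groups, and reached 18779 in Igfbp5-marked and 21595 in Tmem212-marked tail cells, with Col1a1-marked tail cells at 15849. Mitochondrial molecules per nuclear-member molecule thus ran from 5.54 in Gdf10-marked to 13.5 in Slc1a3- and Tmem212-marked brain cells. Depth moved with the share in tail, where it went from 25.5% in 77 cells under 500 molecules to 9.14% in 29 cells of 4000 or more. In cells of 1000 to 2000 molecules alone, the shares were 17.4%, 9.46% and 7.27% in Slc1a3-, Dlx1- and Gdf10-marked brain cells, and 13.3% and 10.5% in Igfbp5- and Col1a1-marked tail cells. Nuclear members rose with depth in brain, in Slc1a3-marked cells from 12977 CPM under 500 molecules to 17600 at 2000 to 4000. In Col1a1-marked tail cells they fell, from 17142 at 1000 to 2000 molecules to 14680 at 2000 to 4000. At 1000 to 2000 molecules nuclear members stood at 17128, 15978 and 16176 CPM in Slc1a3-, Dlx1- and Gdf10-marked brain cells. In Igfbp5-marked tail cells of that depth they stood at 18294.

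**Figure D2:**
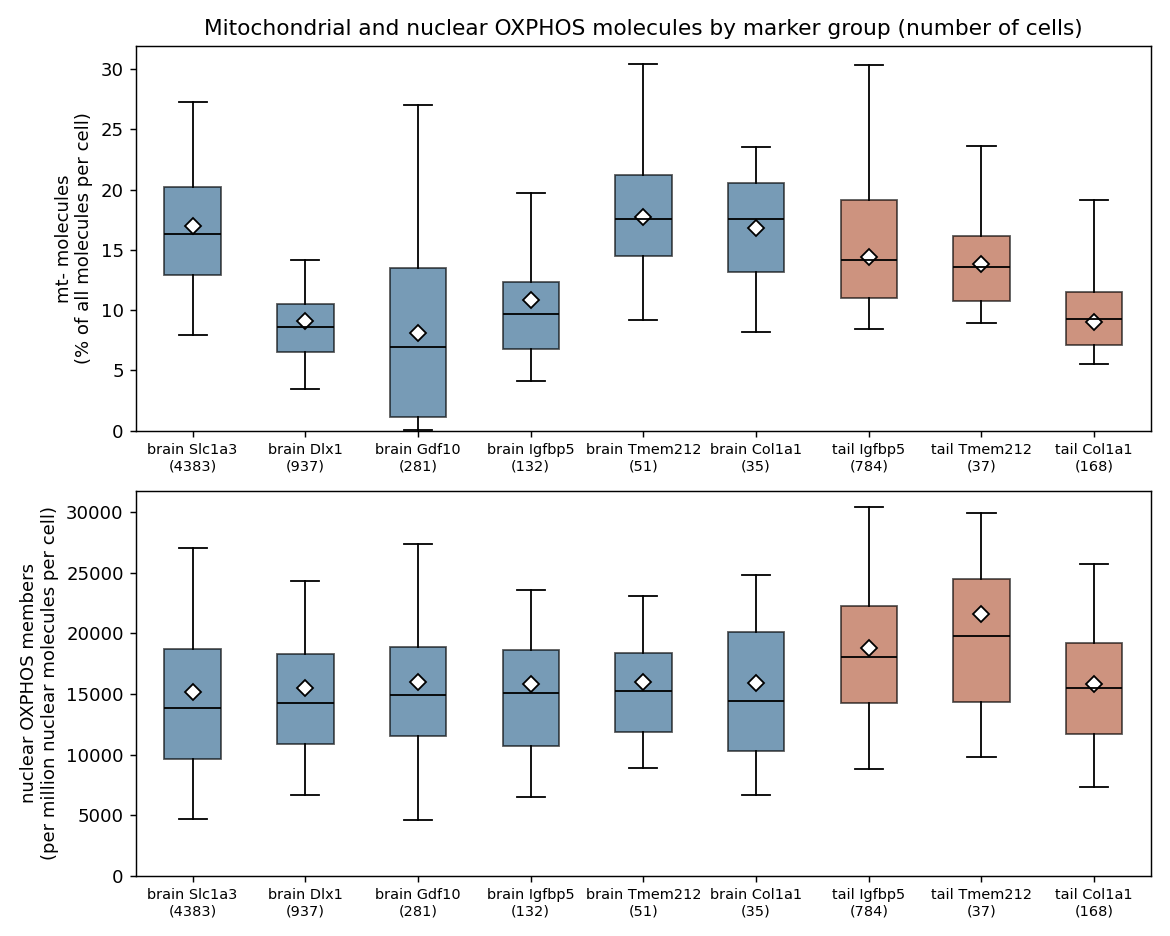
Share of mt- molecules (upper axis, % of all molecules per cell) and nuclear members (lower axis, nuclear CPM per cell) in 9 marker groups, brain in blue and tail in brown. Boxes hold the quartiles and median over cells, whiskers reach the 5th and 95th percentiles, and diamonds are the group's summed value, which spans 8.12% to 17.8% for mt- molecules and only 15125 to 15972 CPM for nuclear members in brain.

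Dlx1-marked brain cells held about the same amount of nuclear members as Slc1a3-marked cells and far fewer mitochondrial molecules. The mt- share was 0.534 of that in Slc1a3-marked cells (0.530 to 0.538), while nuclear members stood at 15446 and 15125 CPM (1.02, 1.001 to 1.042). This latter ratio changed side with the choice of cells, to 0.933 within cells of 1000 to 2000 molecules. Complex I genes were lowest among the mitochondrial ones, at 0.495, with mt-Nd2 and mt-Nd5 at 0.422 and mt-Nd4 at 0.426, and mt-Nd3 (0.738) and mt-Nd1 (0.654) were the least reduced of those whose interval excluded 1. Nuclear complex I (0.921, 0.886 to 0.957) and complex III members (0.874, 0.817 to 0.935) were below 1 in sum, and those of complex IV (1.06, 1.02 to 1.104) and complex V (1.12, 1.08 to 1.16) above it.

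Of 72 nuclear members tested, 2 were called higher in Dlx1-marked cells and 0 lower, against 28.5% and 22.6% of 8506 genes. Cox7a2l had 219 molecules in Dlx1-marked and 250 in Slc1a3-marked cells, 275 and 86.7 CPM (3.17, 2.63 to 3.82). Atp5g2 had 693 and 1114 molecules, 869.7 and 386 CPM (2.25, 2.05 to 2.48). Both were also among the members highest in tail over brain. Ndufa2, an accessory subunit of the matrix arm, stood at 392 and 237 CPM (1.65, 1.44 to 1.89). On the other side were Uqcrc1, at 54.0 and 111 CPM (0.485, 0.344 to 0.668), the accessory subunit Ndufa13 (0.551, 0.426 to 0.705), and Atp5s, coupling factor B, with 6 and 69 molecules (0.315, 0.112 to 0.721). The median member was at -0.02 on the log2 scale and the median gene at 0.29, with 10 of the 72 members above the median gene. Dissociation-induced early genes moved with the groups, with 8 of 8 called higher in Dlx1-marked cells, Fos 19.0-fold and Egr1 58.5-fold among them, and their part in these differences was not tested.

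Gdf10-marked cells had an equally low mitochondrial share, but it came from an uneven mix of cells. The mt- share was 0.479 of that in Slc1a3-marked cells (0.473 to 0.484), with the 4 complexes between 0.453 and 0.509 and single genes between 0.435 for mt-Co1 and 0.535 for mt-Atp8, apart from mt-Nd6 with 3 and 137 molecules (0.212, 0.043 to 0.632). Cells with under 1% mt- molecules made up 62 of 281 Gdf10-marked cells (22.1%, exact binomial 17.4 to 27.4), 38 of 4383 Slc1a3-marked (0.867%) and 2 of 937 Dlx1-marked ones. Under 5% lay 42.7%, 2.21% and 12.5% of the 3 groups. From 5% upward nuclear members rose with the mt- share in most groups. Slc1a3-marked cells held 12773 CPM at 5 to 10% and 17593 at 20 to 40%, and tail Igfbp5-marked cells 16895 and 19560. Dlx1-marked cells held 15461 at 5 to 10% and 16584 at 10 to 20%. Gdf10-marked cells were uneven, at 16081, 15435 and 18519 in the intervals from 5, 10 and 20%. At the low end nuclear members did not follow the mt- share in a common way. The Gdf10-marked cells under 1% held 17013 nuclear members CPM (16106 to 17958), against 16078 in those at 10 to 40%, and the Slc1a3-marked cells under 1% held 23729 (22048 to 25502), against 15221. Gdf10-marked cells at 1 to 5% held 14599 (13749 to 15488), and Dlx1-marked cells under 5% held 12124 (11374 to 12910), against 15461 in those at 5 to 10%. Malat1, a nuclear-retained RNA, was not high in them, at 2526 CPM in Gdf10-marked cells under 1% and 5960 in those at 10 to 40%. Hopx, a homeodomain gene on the Bergmann glia list used here, moved the other way, at 6961 and 2768 in Gdf10-marked and 6409 and 213 in Slc1a3-marked cells. Gdf10 itself stood at 592 (351 to 935, from 18 molecules) in Slc1a3-marked cells under 1% and at 65.5 in those at 10 to 40%. Whether these low-share Slc1a3-marked cells are of the same kind as the Gdf10-marked ones was not tested. What sets the low share was not tested.

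**Figure D3:**
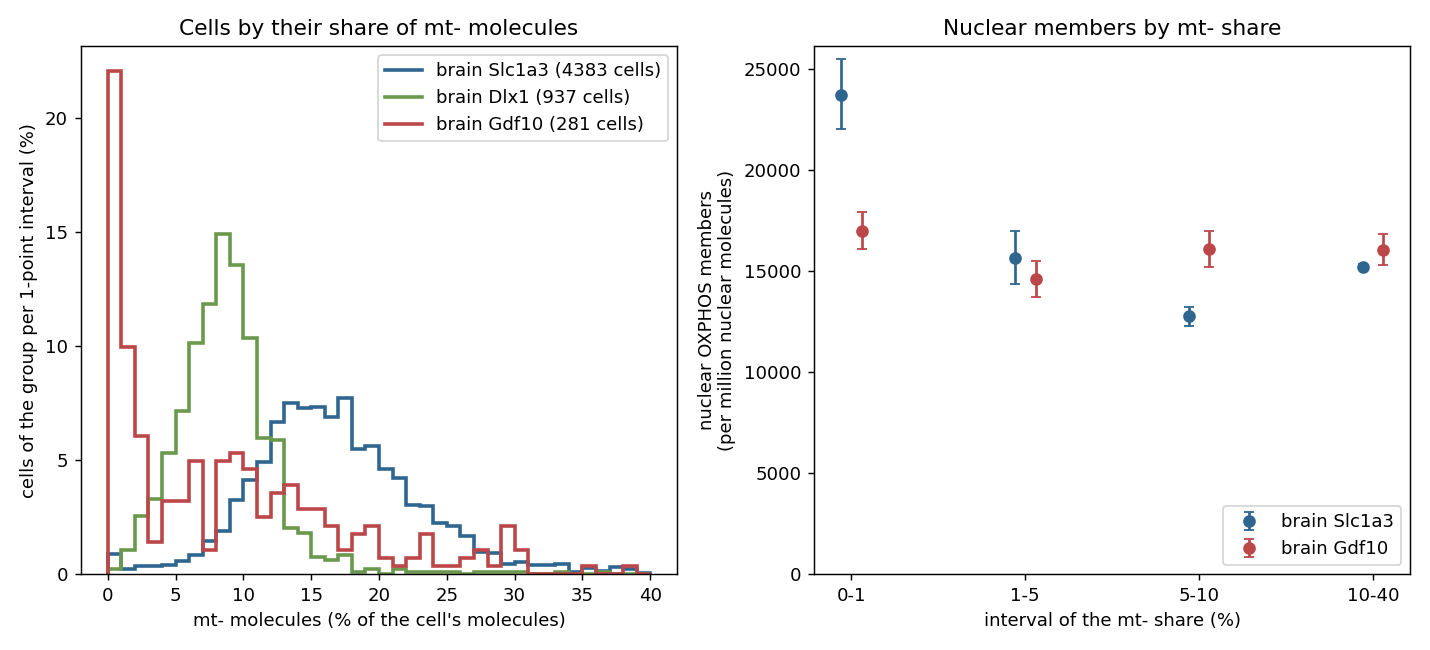
Left, percentage of cells of each brain group in each 1-point interval of the mt- share (% of a cell's molecules), with 22.1% of the 281 Gdf10-marked cells below 1%. Right, nuclear members nuclear CPM by interval of the mt- share (%), points with 95% counting intervals, where Slc1a3-marked cells under 1% are highest at 23729.

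Nuclear members differed little between Gdf10- and Slc1a3-marked cells. They summed to 15961 and 15125 CPM (1.06, 1.03 to 1.09), though this ratio fell to 0.944 within cells of 1000 to 2000 molecules. 0 of 72 members were called in either direction, against 5.54% of 7658 genes higher and 6.01% lower. Atp5f1, the b subunit of the peripheral stalk, stood at 306 and 202 CPM (1.51, 1.21 to 1.87). The complex I accessory subunit Ndufa6 (1.59, 1.18 to 2.11) and the catalytic-head alpha subunit Atp5a1 (1.34, 1.16 to 1.54) also had intervals above 1. Lower in Gdf10-marked cells were the small complex IV subunits Cox6c, at 388 and 565 CPM (0.686, 0.568 to 0.822), and Cox6a1 (0.724, 0.608 to 0.857), with Ndufb5 at 30 and 397 molecules (0.660, 0.440 to 0.958).

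In tail, Col1a1-marked cells had less of both kinds of member than Igfbp5-marked cells. The mt- share was 0.624 of that in Igfbp5-marked cells (0.616 to 0.631), with complex I at 0.559 and complex IV at 0.682, and single genes from 0.472 for mt-Nd4l to 0.771 for mt-Co3, apart from mt-Nd6, whose interval held 1. Nuclear members stood at 15849 and 18779 CPM (0.844, 0.818 to 0.871). Genes in general were also lower on this scale, with a median of -0.32 on the log2 scale over all genes tested and -0.27 over the members, of which 43 lay above the all-gene median. Among 68 nuclear members, 1 was called higher in Col1a1-marked cells and 1 higher in Igfbp5-marked cells, against 8.44% and 16.5% of 4809 genes. Ndufa4l2 had 73 molecules in Col1a1-marked and 8 in Igfbp5-marked cells, 212 and 10.05 CPM (21.1, 10.2 to 50.7). Ndufa12, an accessory subunit of the complex I matrix arm, stood at 244 and 578 (0.422, 0.331 to 0.534), and the other complex I subunits Ndufa13 (0.495, 0.331 to 0.720) and Ndufc1 (0.520, 0.359 to 0.736) were next. Cox6c was slightly above 1 (1.18, 1.01 to 1.37), while the interval of Atp5g1 held 1 (1.29, 0.995 to 1.67).

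Tmem212-marked tail cells were close to Igfbp5-marked ones in mitochondrial share, and higher in nuclear members. The grouping rule allowed Igfbp5 in Tmem212-marked cells, so the 2 groups are not opposites in that gene. A list for the main tail population, 3 genes with Igfbp5 among them, reached 11476 nuclear CPM in Tmem212-marked tail cells. The mt- ratio was 0.959 (0.939 to 0.980), with mt-Co3 (1.111, 1.01 to 1.22) and mt-Co1 (1.05, 1.01 to 1.09997) above 1 and mt-Nd2 lowest at 0.807, and it rose to 1.03 in cells under 20% mt-. Nuclear members stood at 21595 and 18779 CPM (1.15, 1.08 to 1.22), carried by complex I (1.29, 1.16 to 1.42) and complex IV (1.22, 1.09 to 1.36), while the interval of complex V held 1 (0.970, 0.868 to 1.08). The summed nuclear ratio ran from 1.06 to 1.15 over the alternatives tried. Only Cox6b2 was called, 1 of 65 members higher in Tmem212-marked cells and 0 higher in Igfbp5-marked cells, against 4.69% and 1.6% of 3815 genes. It had 26 molecules in Tmem212-marked and 67 in Igfbp5-marked cells, 452 and 84.2 CPM (5.37, 3.28 to 8.56). Without the cell with the most Cox6b2 molecules, 6 of the 26, the Tmem212-marked level was 367. Over the alternatives tried the Cox6b2 ratio ran from 2.94 to 6.26. The complex I accessory subunits Ndufs5 (2.31, 1.47 to 3.48) and Ndufb5 (2.20, 1.48 to 3.17) followed. On the other side Ndufb9 had 0 and 64 molecules, at least 1.54-fold lower against the floor of 3 counts and 1.22-fold by the nearer bound of its 95% interval. Also lower were Cox7a2l at 8 and 251 molecules (0.441, 0.188 to 0.883) and Atp5a1 at 27 and 605 (0.618, 0.404 to 0.908).

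Comparing the same marker across the libraries gave mitochondrial ratios on both sides of 1. In Igfbp5-marked cells the tail share was 1.34 times that of brain (1.31 to 1.36), in Tmem212-marked cells 0.781 (0.760 to 0.802), and in Col1a1-marked cells 0.536 (0.521 to 0.552). Nuclear members were at 1.19 (1.13 to 1.25), 1.35 (1.24 to 1.47) and 0.997 (0.904 to 1.103) in the same order. For Igfbp5-marked cells, 3 of 65 members were called higher in tail and 0 higher in brain, against 12% and 6.72% of 4094 genes. Cox6b2 had 67 and 0 molecules, at least 3.45-fold higher against the floor of 3 counts and 2.73-fold by the lower bound of its interval, and it reached the minimum of 50 molecules through tail alone. The other calls were Ndufb5 with 214 and 10 (3.31, 1.76 to 7.00) and Ndufa1 with 296 and 19 (2.41, 1.51 to 4.06). For Tmem212-marked cells 0 of the 15 members tested were called, against 7.51% of 346 genes higher in tail and 15.9% higher in brain. Cox6a1 (1.96, 1.15 to 3.45), Cox4i1 (1.91, 1.097 to 3.42) and Ndufa12 (1.84, 1.09 to 3.17) had intervals above 1. The ependymal list reached 3477 CPM in tail and 5696 in brain Tmem212-marked cells.

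Isoform pairs encode versions of the same subunit, and their balance differed between libraries and groups. Cox6b2 took 14.6% of Cox6b molecules in tail (exact binomial 12.8 to 16.7) and 2.77% in brain (2.10 to 3.58). Within tail it took 26 of 51 molecules in Tmem212-marked cells (51.0%, 36.6 to 65.2), 16.0% in Igfbp5-marked and 8.97% in Col1a1-marked cells, and within brain 3.57% in Slc1a3-marked and 0.299% in Dlx1-marked cells. The 26 molecules lay in 10 of the 37 Tmem212-marked tail cells, and after thinning to 400 molecules Cox6b2 was found in 3 of them. The interval of that share counts molecules as independent and does not cover differences between cells. A Cox6b2 molecule was found in 7.03% of tail and 0.689% of brain cells, and in 2.26% and 0.289% after thinning each cell to 400 molecules, which left out 19 tail and 718 brain cells. For comparison Cox6b1 was found in 39.2% and 20.3%, and in 13.7% and 10.7% after thinning.

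Col1a1-marked cells held 60.3% of the Ndufa4l2 molecules in tail. It took 46.5% of Ndufa4-family molecules there (73 of 157, 38.5 to 54.6), 3.28% in Igfbp5-marked cells and 0 of 20 in Tmem212-marked cells. In the 19 Slc1a3-marked tail cells, too few to compare, it took 7 of 17 (41.2%, 18.4 to 67.1), at 213 CPM against 212 in Col1a1-marked cells, and was found in 4 cells. Its molecules were found in 47 of 168 Col1a1-marked cells (28.0%), in 4 of 784 Igfbp5-marked cells (0.510%) and in 0 of 7988 brain cells, which allows a share of up to 0.0376% of cells with a molecule at this depth and sets no limit on cells that express the gene. Thinned to 400 molecules, the shares in Col1a1-marked and all tail cells were 4.76% and 0.977%. The cell with the most held 8 of the 73 molecules, and 193 CPM remained without it.

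The c-subunit genes and Cox7a2l followed another pattern, in which Dlx1-marked brain cells lay closer to Igfbp5-marked tail cells than to Slc1a3-marked brain cells. Atp5g2 took 26.3% of c-subunit molecules in Slc1a3-marked (25.03 to 27.7) and 28.4% in Gdf10-marked cells, against 47.9% in Dlx1-marked (45.3 to 50.5), 43.4% in brain Igfbp5-marked and 44.5% in tail Igfbp5-marked cells. Atp5g3 gave way, at 58.6% in Slc1a3-marked and 39.0% in Dlx1-marked cells, while Atp5g1 held 14.4% in tail and 14.6% in brain. Cox7a2l stood at 86.7 nuclear CPM in Slc1a3-marked, 121 in Gdf10-marked, 275 in Dlx1-marked and 315 in tail Igfbp5-marked cells. The remaining isoforms had few molecules, with Cox4i2 at 11 and 7 molecules in tail and brain, Cox6a2 at 1 and 1, Cox7b2 at 2 and 11, and Cox8c at 1 and 0.

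**Figure D4:**
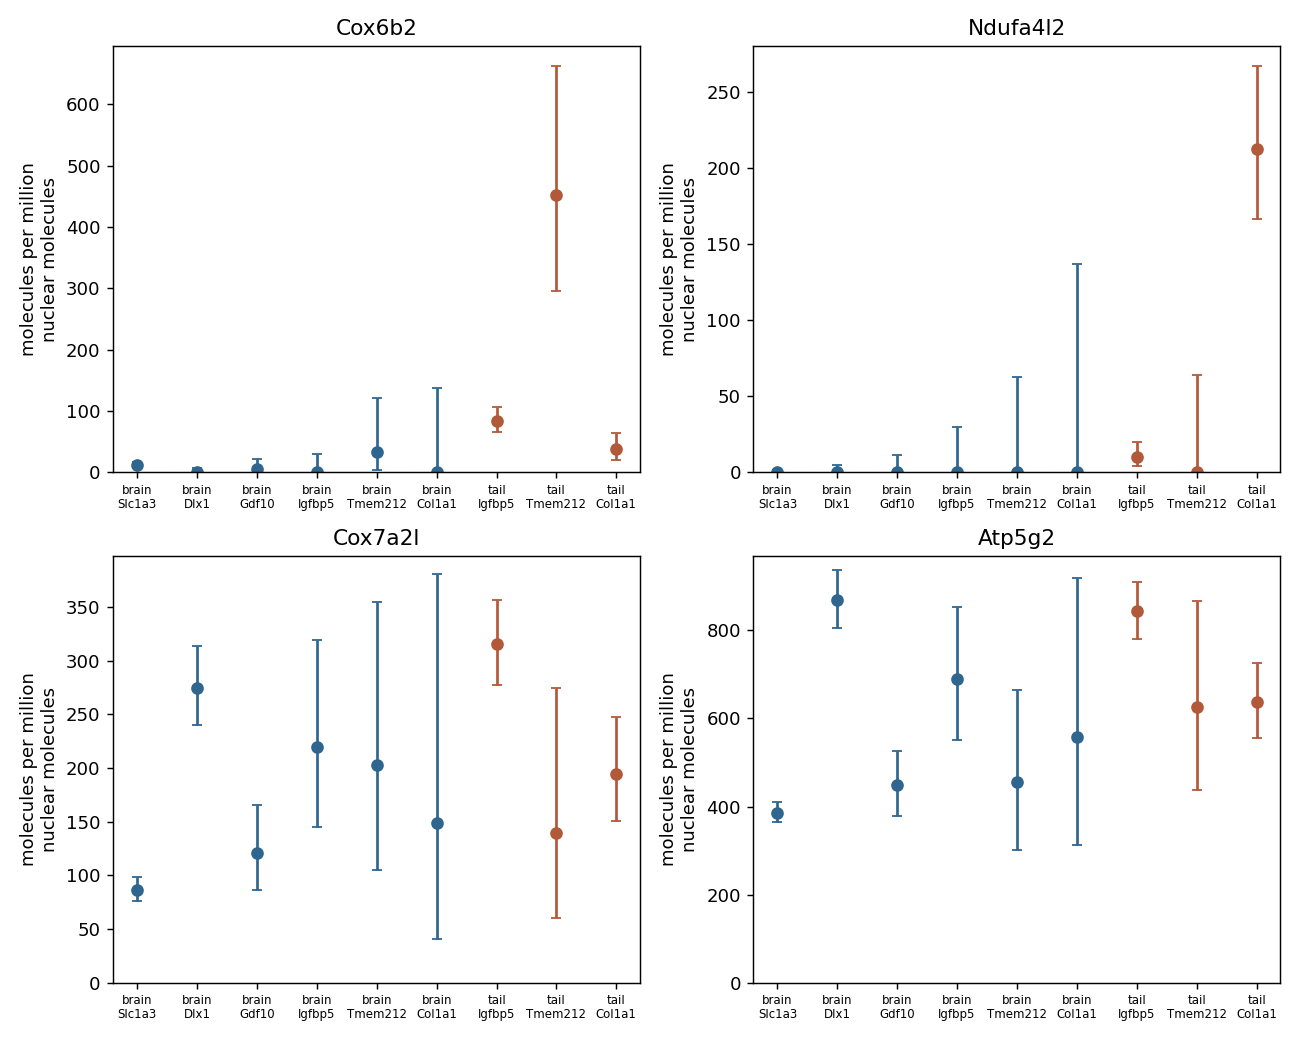
Levels of Cox6b2, Ndufa4l2, Cox7a2l and Atp5g2 (nuclear CPM, linear axes from 0) in 9 marker groups, brain in blue and tail in brown, with exact binomial 95% intervals on the summed counts. Cox6b2 peaks in tail Tmem212-marked cells at 452, Ndufa4l2 in tail Col1a1-marked cells at 212, and Cox7a2l and Atp5g2 are high in both brain Dlx1-marked and tail Igfbp5-marked cells.

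Of the nuclear members, 53 had at least 3 molecules in each of the 9 groups, so that a range between groups could be given. Among these Ndufb5 ranged 7.27-fold between its lowest and highest group, from 81.3 CPM in brain Igfbp5-marked to 591 in tail Tmem212-marked cells, and was also high in brain Tmem212-marked cells, at 439 from 26 molecules. At the even end stood Atp5o, the stalk subunit that fixes the catalytic head, at 439 to 520 nuclear CPM (1.18-fold), then Atp5b, the catalytic beta subunit, and Cox6b1 (1.44-fold each). Small groups widen such ranges by counting error alone.

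The composition of the mitochondrial pool also varied, from 1.16-fold to 1.98-fold for single genes apart from mt-Nd6 with its low counts. mt-Co1 ranged only 1.16-fold and mt-Cytb 1.17-fold in their share of mt- molecules over the 9 groups. mt-Nd1 ranged 1.98-fold, from 4.63% in brain Tmem212-marked to 9.18% in Dlx1-marked cells, and mt-Nd3 1.86-fold, from 2.12% to 3.94% in the same groups. mt-Nd4l ran from 1.86% in tail Col1a1-marked to 3.18% in brain Col1a1-marked cells, and mt-Nd4 from 8.79% in the former to 13.01% in brain Tmem212-marked cells. In the 3 tail groups mt-Co2 was at 12.5% to 14.9%, and in Slc1a3-marked cells at 10.8%. Slc1a3- and Gdf10-marked cells, whose mt- shares of all molecules were 17.0% and 8.12%, stood at 12.2% and 12.9% for mt-Nd4 and at 10.8% and 10.9% for mt-Co2.

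**Figure D5:**
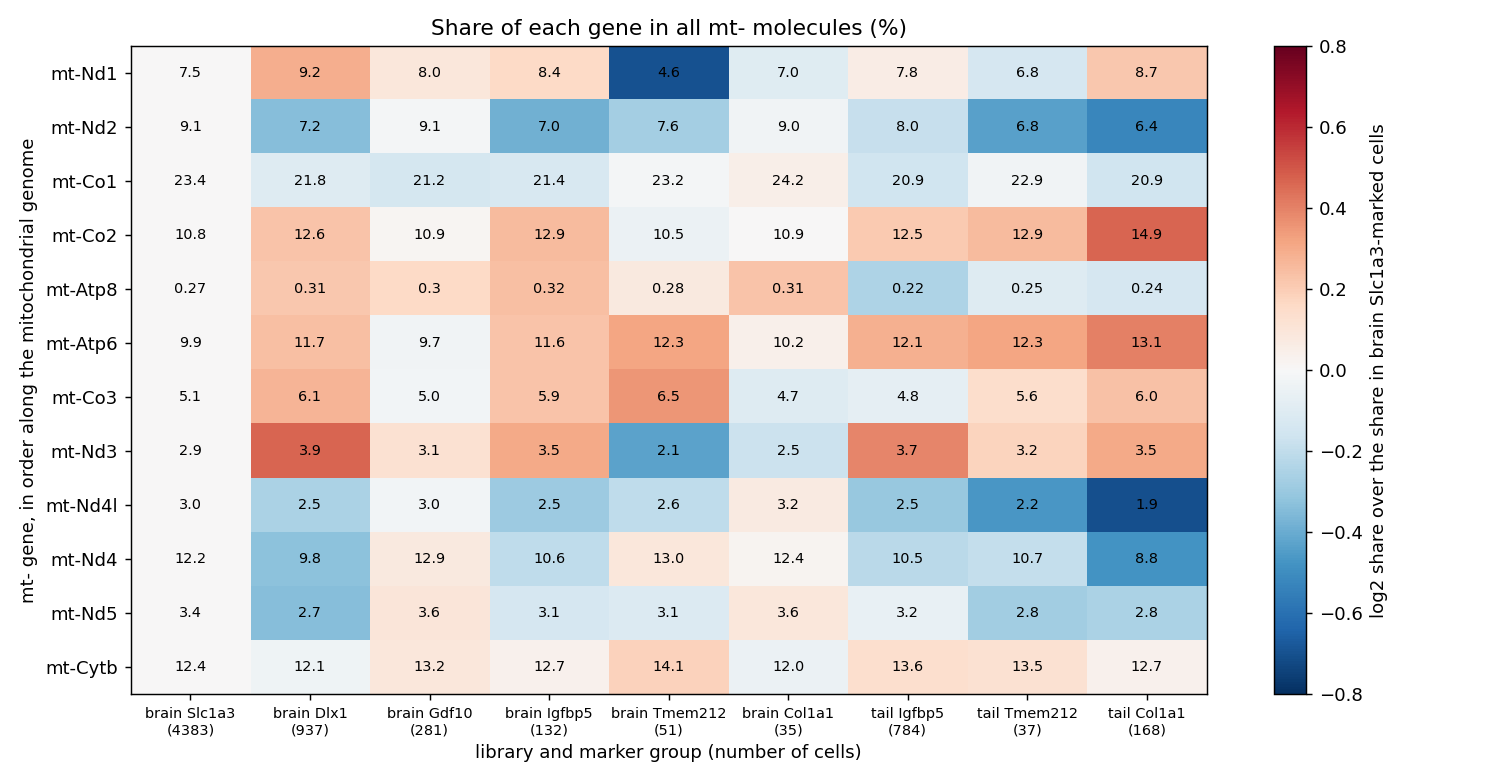
Share (%) of each of 12 mt- genes, in order along the mitochondrial genome, in all mt- molecules of 9 marker groups, with mt-Nd6 left out for its low counts. Colour is the log2 share over that in brain Slc1a3-marked cells, so that the pale brain Gdf10 and Col1a1 columns show compositions near it, and the blue cells mark mt-Nd1 in brain Tmem212-marked cells (4.63%) and mt-Nd4l in tail Col1a1-marked cells (1.86%).

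Genes of neighbouring pathways were counted by list in the same comparisons. In tail over brain, 0 of 4 complex II genes and 0 of 2 cytochrome c genes were called, against 20.6% of all genes higher in tail and 12.7% higher in brain, and of 43 assembly factors 3 were higher in tail, with Cox16 at 3.23, and 3 higher in brain, with Sco2 at 0.263. Of 17 glycolysis genes 4 were higher in tail, among them Ldha (3.44), which makes lactate from pyruvate, and 5 higher in brain, among them Ldhb (0.445), which favours the opposite reaction, and the brain aldolase Aldoc (0.022). Ppargc1a, a coactivator of mitochondrial biogenesis, had 124 and 675 molecules (0.410) and was the 1 of 6 biogenesis genes called. In Dlx1- over Slc1a3-marked cells, 22.6% of all genes tested were called lower and 28.5% higher. Of 15 glycolysis genes 11 were called lower, among them Eno1 (0.113) and Ldha (0.205), and 0 higher. The list median was -2.29 on the log2 scale beside 0.29 for all genes. Of 13 tricarboxylic acid cycle genes 4 were lower, including citrate synthase Cs (0.328). Of 6 biogenesis genes, the transcription factor genes Nrf1 (2.83) and Yy1 (2.28) were called higher, and Ppargc1a lower with 7 and 495 molecules (0.051). Of 8 genes tested for mitochondrial transcription and RNA handling, 2 were called higher in Dlx1-marked cells, Tfam (2.55) and Tfb2m (2.79), and 0 lower. This count lay near the 28.5% of all genes called higher. The median of the nuclear members in this comparison was -0.02.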

How the data were processed

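The deposited tables came from BD's Rhapsody WTA pipeline (version 1.10.1 per the file headers), as run by the authors, and hold counts of molecules per cell barcode and gene after error correction of molecular identifiers (RSEC). The submitters' notes name STAR 2.7.1a, UMI-tools 1.0.1, featureCounts 1.6.4, GENCODE vM 19 and GRCm38. Cells with over 200 and under 4000 genes and under 40% mt- molecules were kept, and no doublet caller was run. Molecules were summed over cells per library or marker group. A ratio carries a conditional exact binomial 95% interval, a share a Clopper-Pearson interval, and a 0 a floor of 3 counts. With 1 library per group no p-value was computed. The call rule was tried on Poisson counts simulated from the brain profile for both sides. These hold no variation between cells or libraries, so the trial does not cover it. Named were all 13 mt- genes, the 8 nuclear members farthest from 1 in each direction by their nearer interval bound (at least 50 molecules), isoform families, and 3 in each direction per group comparison. Members and lists were chosen with earlier results of these data known. Named genes outside the members were chosen after their values were seen. Promoters were found for 62 of 79 nuclear members (78.5%), under 80%, so motif shares over members are void. Tools were Python 3.11.15, numpy 2.4.6, pandas 2.3.3, scipy 1.17.1, matplotlib 3.10.9, R 4.3.3 and edgeR 4.0.16 (TMM factors only). Alternatives covered the scaling, denominator, mt- limit, marker minimum, molecule minimum, fold, thinning and mean over cells.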

Additional observations from a re-analysis of the deposited data

Results flagged for a closer look

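The tail over brain ratio of the mt- share went in different directions in cells with different markers. It was 1.34 in Igfbp5-marked cells, 0.781 in Tmem212-marked cells and 0.536 in Col1a1-marked cells. With 1 library per tissue the difference between these ratios was not tested. Marker lists differed between the libraries in Igfbp5-, Tmem212- and Col1a1-marked cells.

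Barcodes removed for 40% or more mt- molecules also held nuclear members. Among those with over 200 genes, 29 in tail summed to 19468 nuclear members per 1000000 nuclear molecules and 210 in brain to 28364, against 18441 and 15175 in kept cells. The difference was not tested.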

How the results depend on the processing

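No paired analysis was possible because each group is 1 library. The brain and tail were compared in sums that weigh deep cells more, so thinning to 400 molecules, means over cells and a window of 1000 to 2000 molecules (chosen after seeing the data) were tried with the scalings. Tail over brain for Slc1a3-marked cells is not given (19 tail cells), nor are Tmem212 comparisons at a marker minimum of 3 or in the window, with under 20 cells.

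Calls over all genes higher in tail went from 2334 to 1456 at 2-fold, 1546 under TMM, 1288 at 200 molecules and 1233 thinned. Members called higher in tail went from 7 to 3 at 2-fold, under TMM and under median of ratios, and those higher in brain from 0 to 3 and 2 under the last pair. Complex sums under both scalings were added after seeing the data. TMM turned the nuclear ratio to 0.949, Atp5g1 to 0.922, Cox6a1 to 0.895, Cox6b1 to 0.995 and Ndufa4 to 0.930. Median of ratios turned them to 0.961, 0.933 (Atp5g1), 0.906 (Cox6a1) and 0.941 (Ndufa4). The mt- ratio of tail over brain was 0.823 and the nuclear ratio 1.20 with no mt- limit (mt-Atp6 0.999, mt-Co2 0.959, mt-Nd3 0.989), 0.861 and 1.24 with the other denominator, and 0.922 and 1.24 without Col1a1- and Tmem212-marked cells. They were 0.971 and 1.25 as means over cells (mt-Cytb 1.06), 0.960 and 1.24 thinned (mt-Cytb 1.05), and 0.966 and 1.25 in cells under 20% mt- (mt-Cytb 1.04). In the window the nuclear ratio was 1.08 and mt-Co2 0.998.

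For Dlx1 over Slc1a3 the mt- ratio was 0.544 in the window, 0.530 and 0.556 at marker minimums of 1 and 3, 0.523 as means, 0.518 thinned and 0.620 under 20% mt-, and the nuclear ratio was 0.933, 0.999 and 1.05 under the first 3 and 1.08 under 20% mt-. For Gdf10 over Slc1a3 the mt- ratio was 0.418, 0.613, 0.424, 0.520, 0.504 and 0.459 in the same order, and the nuclear ratio 0.944 in the window and 1.101 under 20% mt-. For tail Col1a1 over Igfbp5 the mt- ratio was 0.791 in the window, 0.660 at a minimum of 1, 0.653 as means, 0.663 thinned and 0.691 under 20% mt-, with a nuclear ratio of 0.937 in the window. For tail Tmem212 over Igfbp5 the mt- ratio was 0.901 as means, 0.889 thinned and 1.03 under 20% mt-, and the nuclear ratio 1.06 and 1.07 under the first 2. Tail over brain, the mt- ratio in Igfbp5-marked cells was 1.13 in the window, 1.36 at a minimum of 3, 1.504 as means, 1.499 thinned and 1.25 under 20% mt-, with nuclear ratios of 1.04 in the window and 1.25 as means, and in Tmem212-marked cells the mt- ratio was 0.748 at a minimum of 1, 0.744 thinned and 0.839 under 20% mt-. Why these values moved was not tested.

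Single members kept their side in each alternative for Cox6b2 (5.31 to 8.70 tail over brain), Cox7a2l (1.58 to 2.37), Ndufa1 (1.72 to 2.36), Ndufs1 (0.514 to 0.685) and Uqcrfs1 (0.597 to 0.819), and for Cox7a2l (2.85 to 3.40) and Atp5g2 (2.02 to 2.35) in Dlx1 over Slc1a3. Depth limits members with few molecules, such as Atp5s or mt-Nd6, and the Tmem212- and brain Col1a1-marked groups most.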
